A study of Mus musculus with 12 samples.

Results

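Mouse embryonic stem cells (mESCs) without PROSER1 were followed as they left the naive state of pluripotency. The comparison set 2 RNA-seq libraries of PROSER1 KO cells taken at day 2, after 48 h in N2B27 medium, against 2 libraries of PROSER1 KO mESCs, which is 4 of the 12 libraries of the series. The genes were those with a mean of at least 10 normalised read counts over all 12 libraries, 15341 of the 35976 in the table, and 10334 genes were at 0 in every library. All lines came from mESCs whose Tet2 alleles are floxed (Tet2 fl/fl), and no Cre treatment is stated for these cells, so every group shares that background. The KO was 1 single-cell clone, made with Cas9 and a guide to exon 1 of Proser1. The KO+Rescue line was that clone given a PiggyBac transgene for FLAG-tagged PROSER1, selected with blasticidin and subcloned, and the WT line was not edited at Proser1. The mESC libraries were taken from cells kept without feeders in serum, LIF and the 2i inhibitors of MEK and GSK3, when they were plated for differentiation. The day 2 libraries were taken from monolayers after 48 h in N2B27, which holds none of these factors. Each of the 6 groups, KO, KO+Rescue and WT at day 2 and as mESCs, had 2 libraries that the labels call biological replicates. Nothing says whether these were separate cultures, so a p-value here speaks of the spread among the libraries, which may be technical. The ± after a log2 value is the standard error (SE) of the limma fit, and "called" means a Benjamini-Hochberg adjusted p under 0.05.

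In naive mESCs, LIF acts through STAT3, the MEK inhibitor blocks the ERK branch of FGF signalling, and the GSK3 inhibitor stabilises β-catenin, which relieves repression by TCF7L1. Together these inputs hold a network of transcription factors that includes NANOG, ESRRB, KLF4 and TFCP2L1. Once they are withdrawn, the network is dismantled and cells pass through a formative state marked by OTX2, POU3F1 and FGF5 before they take up a lineage. PROSER1 is a proline- and serine-rich protein that binds the 5-methylcytosine dioxygenase TET2 and the O-GlcNAc transferase OGT. The question that the comparison addresses is how the transcriptome changed during this exit when PROSER1 was missing.

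The guide is shown because it defines the KO. It is printed with the 3 bases of its PAM in capitals as they stand in the GRCm39 genome: gtgctggatgaaattcgaaAGG. Its 19 bases matched chromosome 3 once, at 53371720 to 53371738 on the plus strand, inside the coding part of exon 1 of Proser1 (GENCODE). The Proser1 gene spans chromosome 3 from 53463795 to 53481755 in GRCm38.p6, the assembly that the mm10 build of the files corresponds to. A small insertion or deletion there need not lower the transcript, so the read count of Proser1 does not check the KO. Proser1 had 872 and 1067 normalised read counts in the KO day 2 libraries, against 576 and 502 in the KO mESC libraries, a log2 change of 0.84 ± 0.20 (SE, limma adjusted p = 0.00261). In the KO+Rescue line it had 3041 and 2994 at day 2 and 2828 and 3089.8 as mESCs, and in WT 829 and 685 at day 2 and 889 and 550.5 as mESCs. All 4 KO+Rescue libraries were thus above the 8 others, while the WT and KO libraries overlapped.

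The medium change removed a Wnt-like input and LIF, and promoter stretches of list members that carry the letters of the matching transcription factors are shown for that reason. RefSeq promoters (GRCm38.p6, 250 bases before to 50 after the start) were searched on both strands for the TCF/LEF letters CTTTGAT and CTTTGTT, and for TTCNNNGAA, the core of a STAT site. Of 23 Wnt targets listed, 14 had promoter entries, and 4 of their 22 windows, in 4 genes, held TCF/LEF letters, against 9.34% of all 32841 windows. Each stretch below lies before the start, is written 5′ to 3′ on the gene's strand and has the letters in capitals, where AACAAAG and ATCAAAG are the same letters on the other strand.
Fzd7, chr1:59481977-59482063, + strand: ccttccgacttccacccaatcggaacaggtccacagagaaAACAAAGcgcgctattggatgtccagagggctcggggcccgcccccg
Sp5, chr2:70474673-70474747, + strand: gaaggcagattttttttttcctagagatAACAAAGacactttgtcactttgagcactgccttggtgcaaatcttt
Sp5, chr2:70474779-70474865, + strand: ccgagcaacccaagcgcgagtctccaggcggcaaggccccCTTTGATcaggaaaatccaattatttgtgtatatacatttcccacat
Tnfrsf19, chr14:61038143-61038229, - strand: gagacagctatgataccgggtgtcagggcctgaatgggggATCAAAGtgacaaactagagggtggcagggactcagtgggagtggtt
Dkk1, chr19:30549548-30549634, - strand: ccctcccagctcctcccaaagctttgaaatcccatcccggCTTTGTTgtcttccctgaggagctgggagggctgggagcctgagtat
Of 19 LIF and STAT3 targets, 18 had entries, and 4 of their 22 windows, in 3 genes, held the STAT letters, against 8.3% of all windows. In Cish they stood at or after the start, and in Socs3 and Bcl6 before it, with 1 of the stretches of Bcl6 printed.
Socs3, chr11:117969472-117969560, - strand: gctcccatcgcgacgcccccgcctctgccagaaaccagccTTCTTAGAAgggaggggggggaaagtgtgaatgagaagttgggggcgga
Bcl6, chr16:23988922-23989010, - strand: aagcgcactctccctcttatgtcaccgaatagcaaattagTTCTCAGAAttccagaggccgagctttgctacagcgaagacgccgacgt
These matches are descriptions of letters in a window. The values of these genes are given with their lists below.

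Reads per library, recovered from the deposited normalised read counts, numbered 44967373 to 62579041 in the 4 KO libraries and 38634668 to 66450803 over all 12. The authors' size factors left the normalised totals of KO day 2 lower than those of KO mESCs (log2 ratio -0.34). With equal library totals the median change over all genes would be 0.35 in KO, 0.34 in KO+Rescue and 0.21 in WT, against 0.02, -0.03 and -0.02 with the authors' factors. Fold changes here follow the authors' factors. Small decreases can turn on this choice and are marked where they do. The summed level of 13 mitochondrially encoded genes was 86592 to 94646 normalised read counts at KO day 2 and 205954 to 235992 in KO mESCs. Its part in the other results was not tested. In bulk RNA, fewer cells of a type and less RNA per cell cannot be told apart.

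Between KO day 2 and KO mESCs, 9219 genes (60.1%) passed a limma adjusted p of 0.05, on log2(normalised read count + 1). At day 2, 4820 (31.4%) were higher and 4399 (28.7%) were lower. Of these, 3100 were at least 2-fold higher and 2065 at least 2-fold lower, and 1600 and 931 passed 4-fold. The split depended on the scaling: with equal library totals 6239 genes were higher and 2527 lower, a share of 71.2% higher against 52.3%. Because of this wide background, a list is described below by its counts, its median and its members' values, and a count near the background shares says nothing particular about the list.

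Naive pluripotency genes fell almost as a block. Of 27 listed, 26 fell, none rose and the median log2 change was -4.36 (-4.02 with equal library totals), against 0.02 over all genes. Nanog, a homeobox factor at the centre of the naive network, had 1691 and 1621 normalised read counts at KO day 2, against 43831 and 45752 in KO mESCs (-4.76 ± 0.19, SE, on the log2 scale, limma adjusted p = 7.91e-10). Klf4, a Krüppel-like factor downstream of LIF, had 58.4 and 52.4 at KO day 2 and 3136 and 2680.2 in KO mESCs (-5.69 ± 0.20). Esrrb, an orphan nuclear receptor that sustains self-renewal, had 103 and 126 at KO day 2, against 8632 and 7767 in KO mESCs (-6.16 ± 0.21). The day 2 libraries of these genes held a few percent of the mESC level or less, far outside the distance between replicates.

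The list also holds surface proteins and enzymes. Jam2, a junctional adhesion molecule, had 32.5 and 26.2 normalised read counts at KO day 2, against 12152 and 12766 in KO mESCs (-8.69 ± 0.19). Prdm14, a transcriptional repressor that keeps the methylation machinery low in naive cells, had 1.48 and 1.5 at KO day 2, against 609.5 and 536 in KO mESCs (-7.85 ± 0.57). Nr5a2, a nuclear receptor, had 26.6 and 40.4 at KO day 2, against 3895 and 3634 in KO mESCs (-6.80 ± 0.22). Tbx3, a T-box factor, fell by a similar amount, with 24.4 and 35.2 at KO day 2 and 2550.2 and 2262 in KO mESCs (-6.31 ± 0.20). Tdh, the mitochondrial threonine dehydrogenase that mouse ES cells depend on, fell to 2459.8 and 2617 at day 2, against 52308 and 51929.6 in KO mESCs (-4.36 ± 0.12).

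Other naive genes fell less. Zfp42, which encodes REX1, kept 1529 and 1577 normalised read counts at KO day 2, against 10735 and 12623 in KO mESCs (-2.91 ± 0.19). Fgf4, the FGF ligand that ES cells make themselves, had 3178 and 3208 at KO day 2 and 7139 and 6508 in KO mESCs (-1.09 ± 0.12). The weakest fall was that of Dppa4 (8112 and 7747 at KO day 2 and 11903 and 13594 in KO mESCs, -0.68 ± 0.19, limma adjusted p = 0.00745), which encodes a chromatin protein. It was not called with equal library totals (adjusted p = 0.0657) or without KO mESC replicate B (adjusted p = 0.0654). Nlrp14 was the only member that was not called, with 28.8 and 18 at KO day 2 and 13.4 and 17.5 in KO mESCs.

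**Figure D1:**
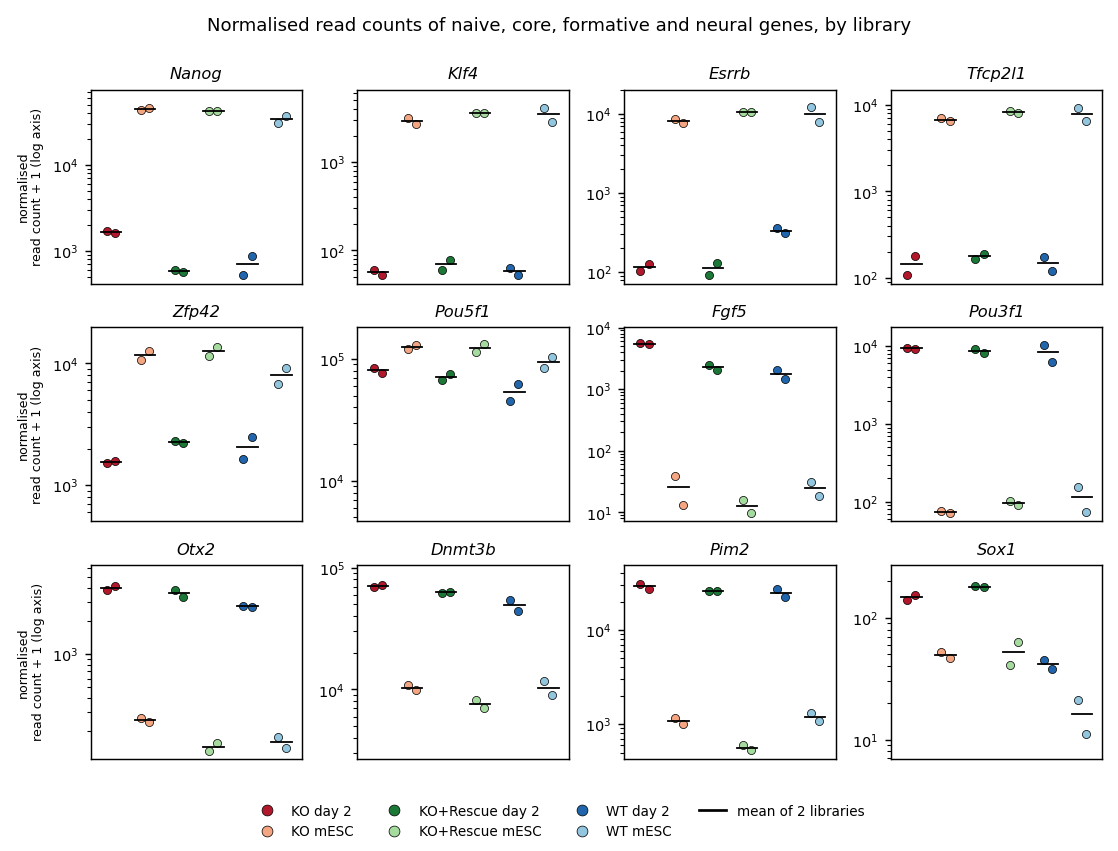
Normalised read count plus 1 of 12 genes in each of the 12 libraries, on log axes. Each point is 1 library and each line the mean of 2. Within each line day 2 stands left of mESC. In KO, the naive genes Nanog, Klf4, Esrrb, Tfcp2l1 and Zfp42 lie lower at day 2, the formative genes Fgf5, Pou3f1, Otx2, Dnmt3b and Pim2 lie higher, and Pou5f1 moves little (84294 and 76372 at day 2, 119841 and 129356 in mESCs).

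The core pluripotency factors split. Among 12 genes that naive and primed cells both use, 4 rose and 6 fell, with a median of -0.27 that turned to 0.06 with equal library totals. Nanog, whose steep fall is given above with the naive genes, is counted in this list. Sox2, an HMG-box factor, fell to 3611 and 3818 normalised read counts at KO day 2, against 11357 and 10791 in KO mESCs (-1.58 ± 0.12). Pou5f1, which encodes OCT4, had 84294 and 76372 at KO day 2 and 119841 and 129356 in KO mESCs (-0.63 ± 0.20, limma adjusted p = 0.0148). Its libraries did not overlap between stages. The call was lost with equal library totals (-0.30, adjusted p = 0.0815), without KO mESC replicate B (adjusted p = 0.0896) and without KO day 2 replicate B (adjusted p = 0.0956). Lin28a, an RNA-binding protein that blocks let-7 processing, rose, with 33872 and 33533 at KO day 2 and 12083 and 11774 in KO mESCs (1.5 ± 0.15). Utf1, a chromatin factor of pluripotent cells, also rose (0.98 ± 0.19), as did L1td1 (0.86 ± 0.20) and Tcf3 (0.87 ± 0.15). Tcf3 here is the gene on chromosome 10, not Tcf7l1, which lies on chromosome 6. Sall4, a zinc-finger factor, had 5825 and 6382 at KO day 2 and 5422 and 4753 in KO mESCs and was not called (limma adjusted p = 0.243).

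Formative and primed genes rose nearly as uniformly as naive genes fell. Of 24 tested, 22 rose and 1 fell, with a median log2 change of 2.13. Fgf5, an FGF ligand of the early epiblast, had 5641 and 5359 normalised read counts at KO day 2, against 38.1 and 12.1 in KO mESCs (7.92 ± 0.41, limma adjusted p = 8.18e-09). Pou3f1, which encodes the POU factor OCT6, had 9462 and 9317 at KO day 2, against 75.1 and 71.5 in KO mESCs (6.98 ± 0.29). Otx2, the homeobox factor that redirects OCT4 to new enhancers, had 3852 and 4174 at KO day 2, against 262 and 240.1 in KO mESCs (3.99 ± 0.15). No KO mESC library held more than 262 counts of any of the 3, and no KO day 2 library held fewer than 3852.

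Fgf15, a further FGF ligand of the list, had 452 and 437 normalised read counts at KO day 2, against 2.24 and 4.05 in KO mESCs (6.78 ± 0.32). Pim2, a serine/threonine kinase, rose as well, with 30753 and 27553 at KO day 2 and 1159 and 997 in KO mESCs (4.76 ± 0.15). Sox3, an HMG-box factor related to Sox2, had 2466 and 2353 at KO day 2, against 79.6 and 86.3 in KO mESCs (4.84 ± 0.40). In each of these genes the day 2 libraries lay far above the mESC libraries.

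**Figure D2:**
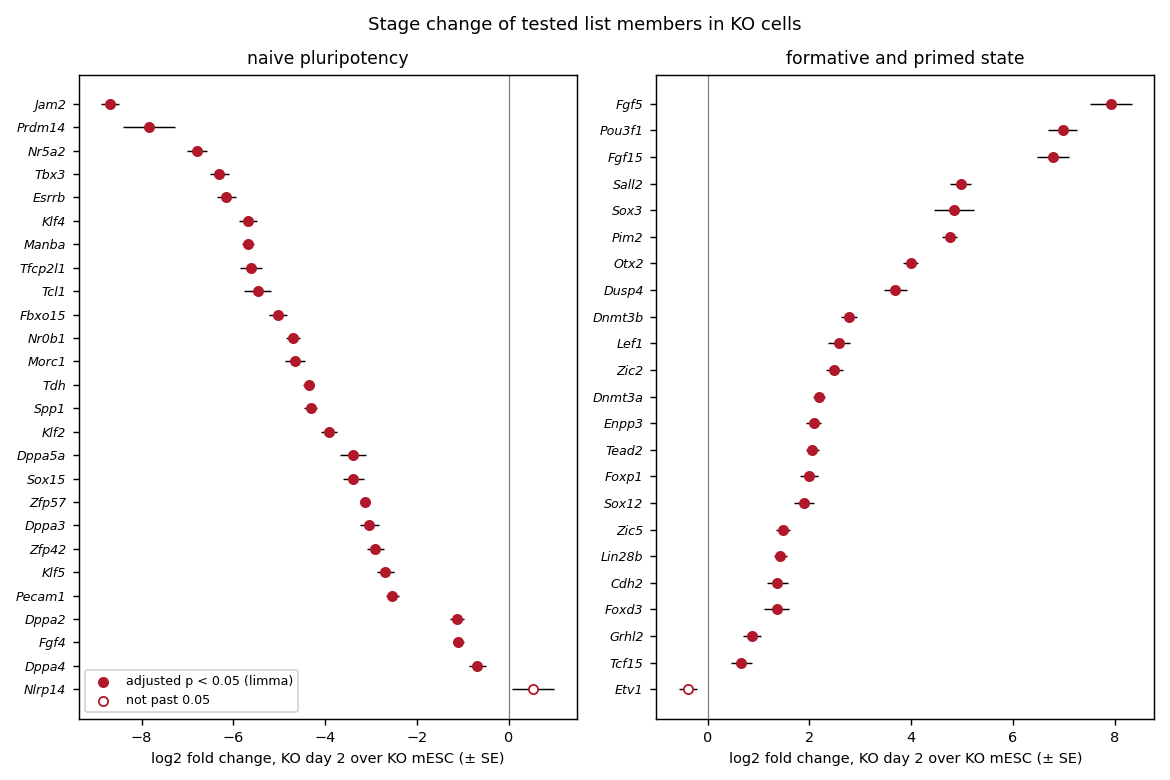
Log2 fold change of KO day 2 over KO mESC for members of the naive list (left panel) and of the formative and primed list (right panel), with the standard error of the limma fit as a bar. Filled points passed an adjusted p of 0.05. In the naive panel 25 of 26 points are filled and lie below 0, and in the formative panel 22 of 23 are filled and lie above 0.

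The LIF pathway list moved in 1 direction. None of 18 tested LIF and STAT3 targets rose and 14 fell, with a median of -1.98. At the receptor, Il6st, which encodes the shared chain gp130, had 493 and 563 normalised read counts at KO day 2, against 2396 and 1942 in KO mESCs (-2.03 ± 0.14). Lifr, its LIF-binding partner, had 175 and 249.9 at KO day 2 and 757 and 714 in KO mESCs (-1.81 ± 0.18). Stat3 itself had 284 and 338 at KO day 2, against 1508 and 1486 in KO mESCs (-2.27 ± 0.18). The receptor chains and the factor thus stood at well under their mESC level in both day 2 libraries.

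Among the targets, Socs3, the feedback inhibitor of the pathway and one of the genes with STAT letters in its promoter, had 251 and 213 normalised read counts at KO day 2, against 1954 and 1945 in KO mESCs (-3.07 ± 0.15). Bcl6, a repressor with such letters in both of its promoter windows, had 5.17 and 8.23 at KO day 2, against 68.3 and 40.5 in KO mESCs (-2.83 ± 0.48). Tfcp2l1, a naive factor that STAT3 induces, had 106 and 177 at KO day 2, against 6947 and 6557 in KO mESCs (-5.62 ± 0.24). Bcl3, an IκB-family cofactor, fell as well (-4.00 ± 0.31).

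Wnt targets moved both ways. Of 22 tested, 10 rose and 10 fell, and the median of -0.17 turned to 0.15 with equal library totals. Those that fell include feedback inhibitors and direct targets that β-catenin activates in 2i. Axin2, a scaffold of the β-catenin destruction complex, had 174 and 153 normalised read counts at KO day 2, against 839 and 861 in KO mESCs (-2.38 ± 0.17). Notum, a secreted enzyme that inactivates Wnt proteins, had 12.6 and 18 at KO day 2, against 937 and 776 in KO mESCs (-5.73 ± 0.30). Cdx1, a caudal homeobox factor, had 2.95 and 8.98 at KO day 2, against 1348 and 1165 in KO mESCs (-7.64 ± 0.39). These 3 genes retained little of their mESC level.

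Among the 10 that rose were the following. Lef1, a DNA-binding partner of β-catenin, had 1257 and 1342 normalised read counts at KO day 2, against 236 and 198 in KO mESCs (2.58 ± 0.22). Tcf7, another such partner, had 2014 and 1968 at KO day 2 and 729 and 664 in KO mESCs (1.52 ± 0.14). Fzd7, a Wnt receptor, had 5644 and 6186 at KO day 2, against 1109 and 1008 in KO mESCs (2.48 ± 0.16).

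The 4 genes with TCF/LEF letters in a promoter did not move alike. Fzd7 rose, while Sp5, a zinc-finger factor induced by Wnt signalling, fell to 6.65 and 8.23 at KO day 2, against 229 and 192 in KO mESCs (-4.65 ± 0.74). Tnfrsf19, a TNF-family receptor, had 758 and 738 at KO day 2, against 1610.1 and 1635 in KO mESCs (-1.12 ± 0.14), and Dkk1, a secreted Wnt antagonist, had 5.17 and 4.49 at KO day 2, against 43.7 and 32.4 in KO mESCs (-2.73 ± 0.77).

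Most FGF and ERK genes that were called rose. Of 15 tested FGF ligands and receptors, 9 rose and 3 fell, and of 26 ERK targets 15 rose and 3 fell (medians 1.52 and 0.59). Besides Fgf5 and Fgf15, the receptor gene Fgfr1 had 2725 and 2549 normalised read counts at KO day 2, against 1171 and 1167 in KO mESCs (1.17 ± 0.18). Fgfr2, a second receptor, had 325 and 399 at KO day 2, against 54.9 and 70.1 in KO mESCs (2.52 ± 0.27). Fgf17 went the other way, with 48.0 and 41.2 at KO day 2, against 631 and 656 in KO mESCs (-3.82 ± 0.19). So did Fgf4, given above, and Fgf10 (0.739 and 2.24 at KO day 2 and 112 and 94.4 in KO mESCs).

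Of the ERK targets, Dusp6, a phosphatase that switches ERK off, had 7295 and 6852 normalised read counts at KO day 2, against 1373 and 1326 in KO mESCs (2.39 ± 0.13). Dusp4, a nuclear phosphatase of the same family, had 684 and 703 at KO day 2, against 47.1 and 59.4 in KO mESCs (3.69 ± 0.23). Egr1, an immediate early zinc-finger factor, had 239 and 302 at KO day 2, against 17.9 and 10.8 in KO mESCs (4.17 ± 0.34). Spred1, an inhibitor of RAS activation, rose by 1.37 ± 0.14, and Junb, an AP-1 subunit, fell, with a change of -1.10 ± 0.19.

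Genes of the Nodal pathway moved in both directions. Of 20 genes, 9 rose and 7 fell (median 0.23). The ligand Nodal had 2583 and 2355 normalised read counts at KO day 2, against 5009 and 5263 in KO mESCs (-1.06 ± 0.14). Tdgf1, which encodes its co-receptor CRIPTO, had 30972 and 30610.0 at KO day 2, against 87066 and 96555 in KO mESCs (-1.57 ± 0.29). Gdf3, a related ligand, had 5169 and 4959 at KO day 2, against 13093 and 13931 in KO mESCs (-1.42 ± 0.15). All 3 fell without overlap between the stages.

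The antagonists of Nodal did not move together. Lefty1 had 3898 and 2971 normalised read counts at KO day 2, against 1085 and 927 in KO mESCs (1.76 ± 0.15), whereas its neighbour and paralogue Lefty2 had 629 and 604 at KO day 2, against 3514 and 3339.8 in KO mESCs (-2.47 ± 0.12). Reads of such similar genes could be split between them in the authors' counting. Acvr2b, an activin receptor, rose (1.85 ± 0.19), as did Skil, a feedback repressor of SMAD signalling (1.52 ± 0.12), and Fst, which encodes follistatin (1.56 ± 0.20). Inhbb, an activin subunit gene, fell to 11.1 and 4.49 at KO day 2, against 483 and 402 in KO mESCs.

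Among BMP targets and ID genes, 3 of 17 rose and 7 fell (median -0.53, and 4 and 5 with equal library totals). Bmp4, the ligand, had 28.8 and 24.7 normalised read counts at KO day 2, against 493 and 552 in KO mESCs (-4.24 ± 0.23). Id1, an inhibitor of bHLH factors, had 64.3 and 49.4 at KO day 2, against 774 and 827 in KO mESCs (-3.80 ± 0.19), and Id3, a paralogue, had 776 and 699 at KO day 2, against 2426 and 2522 in KO mESCs (-1.75 ± 0.12). Chrd, which encodes the BMP antagonist chordin, rose, with 56.1 and 36.7 at KO day 2 and 4.48 and 12.1 in KO mESCs (2.45 ± 0.48).

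Lineage genes moved in both directions. Of 30 early neural genes, 20 were tested, 10 rose and 3 fell (median 1.16). Nes, which encodes the intermediate filament nestin, had 4103 and 3926 normalised read counts at KO day 2, against 263 and 194 in KO mESCs (4.14 ± 0.24). Sox11, an SRY-related factor of young neurons, had 1492 and 1788 at KO day 2, against 225 and 237 in KO mESCs (2.82 ± 0.19). Sox1, the earliest neuroectoderm marker in common use, had 139.6 and 154 at KO day 2, against 51.5 and 45.9 in KO mESCs (1.57 ± 0.34, limma adjusted p = 0.00143). For all 3 both day 2 libraries lay above both mESC libraries.

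Dcx, a microtubule protein of migrating neuroblasts, had 28.8 and 44.1 normalised read counts at KO day 2 and none in either KO mESC library, which is at least 9.85-fold higher against a floor of 3 reads per library. Olig2 (-1.86 ± 0.17) and Nkx6-2 (-2.60 ± 0.24), regional factors of the neural tube, fell. Tubb3, a neuronal tubulin, had 2105 and 1987 at KO day 2 and 1938 and 1749.5 in KO mESCs and was not called (limma adjusted p = 0.339).

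Of 26 mesendoderm genes, 16 were tested, 6 rose and 8 fell (median -0.79), and with equal library totals 6 rose and 5 fell (median -0.46). T, which encodes brachyury, had 90.1 and 73.3 normalised read counts at KO day 2, against 225 and 171 in KO mESCs (-1.26 ± 0.26, limma adjusted p = 0.001). Eomes, a T-box factor of the same lineage, had 310.2 and 312 at KO day 2, against 571 and 556 in KO mESCs (-0.85 ± 0.25). With equal library totals its fall was not called (-0.52, adjusted p = 0.157). Wnt3, a ligand of the posterior epiblast, rose to 179.5 and 173 at KO day 2, against 22.4 and 21.6 in KO mESCs (2.95 ± 0.34). Wnt3a was at 0 in both KO day 2 libraries, against 32.5 and 37.8 in KO mESCs, at least 15.8-fold lower by the same floor.

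Genes of DNA methylation and of TET partners moved apart. Of 30 tested, 9 rose and 6 fell, with a median of 0.15, near the shares over all genes. With equal library totals 16 rose and 4 fell (median 0.48). The de novo methyltransferase gene Dnmt3b had 69696 and 72055 normalised read counts at KO day 2, against 10866 and 9831 in KO mESCs (2.78 ± 0.16). Its relative Dnmt3a had 25628 and 26704 at KO day 2, against 5698 and 5780.0 in KO mESCs (2.19 ± 0.13), while the cofactor gene Dnmt3l had 2161 and 2079 at KO day 2, against 6488 and 6512 in KO mESCs (-1.62 ± 0.14). Both catalytic enzymes rose by more than 4-fold as the cofactor fell.

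Among the TET dioxygenases, which oxidise 5-methylcytosine, each gene did something else. Tet2 had 117 and 141 normalised read counts at KO day 2, against 1709.9 and 1648 in KO mESCs (-3.70 ± 0.18). Tet3 had 411 and 510.3 at KO day 2, against 59.4 and 17.5 in KO mESCs (3.78 ± 0.41). Tet1 had 2474 and 3686 at KO day 2 and 3323 and 3082 in KO mESCs and was not called (-0.08 ± 0.20, limma adjusted p = 0.724). Its KO day 2 libraries lay on either side of the KO mESC libraries, and its sign turned with equal library totals (0.25) and without KO day 2 replicate A (0.20). Ogt, the transferase gene, fell to 1727 and 2003, against 6005 and 5912 in KO mESCs (-1.68 ± 0.13).

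Polycomb genes moved in both directions. Of 27 genes, 10 rose and 9 fell, near the shares over all genes (31.4% higher and 28.7% lower). The median of -0.02 became 0.32 with equal library totals, where 12 rose and 4 fell. The core PRC2 genes Eed (7056 and 6929.5 normalised read counts at KO day 2 and 23910.0 and 27490.4 in KO mESCs, -1.87 ± 0.17) and Suz12 (-1.04 ± 0.13) fell, as did the accessory gene Mtf2 (-1.49 ± 0.13). The chromobox genes Cbx6 (1.98 ± 0.16) and Cbx2 (1.24 ± 0.15) of PRC1 rose. Phc1, a PRC1 scaffold gene, rose too (1.29 ± 0.16).

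The 9 regulators that the study singled out for PROSER1 were chosen on libraries of this series, so their direction is not independent evidence. Of the 8 tested, 6 rose and none fell (median 1.87), and all 8 rose with equal library totals. Barx1, a homeobox gene, had 100.5 and 96.5 normalised read counts at KO day 2, against 2.24 and 2.7 in KO mESCs (4.84 ± 0.49). Pax6, a paired-box factor of eye and forebrain, had 118 and 182 at KO day 2, against 37.0 and 33.7 in KO mESCs (2.02 ± 0.32). Prdm8, a zinc-finger gene, had 47.3 and 61.4 at KO day 2 and 0 and 2.7 in KO mESCs, 44.3-fold higher with a 95% counting interval of 12.1 to 369.5, since the mESC value rests on 2 reads. Tbx15, a T-box gene, rose as well (1.70 ± 0.45).

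The remaining study-chosen regulators were not called with the authors' factors. Cbx8 had 147 and 136 normalised read counts at KO day 2 and 85.2 and 97.1 in KO mESCs (limma adjusted p = 0.0561), without overlap between the stages. Mef2c, a MADS-box factor, had 11.1 and 8.23 at KO day 2 and 3.36 and 1.35 in KO mESCs (adjusted p = 0.0532). Eya4 was under the minimum of 10 and was not tested. It had 75 recovered reads at KO day 2 and 2 in KO mESCs, 22.8-fold higher with a 95% counting interval of 6.09 to 191.5.

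The largest rises over all genes, by the naming rule, began with Spon1 and Btbd17. Spon1, which encodes the matrix protein F-spondin, had 1052 and 924 normalised read counts at KO day 2, against 4.48 and 0 in KO mESCs (8.72 ± 0.60). Btbd17 had 1313 and 1208 at KO day 2, against 4.48 and 1.35 in KO mESCs (8.46 ± 0.36). Gfra1, a GDNF co-receptor, had 311 and 292 at KO day 2 and none in KO mESCs, at least 81.4-fold higher. Kif1a, a motor of synaptic vesicle transport, had 2534 and 2578 at KO day 2, against 12.3 and 16.2 in KO mESCs (7.40 ± 0.27). None of these genes had more than 20 counts in a KO mESC library.

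Jakmip2 (1371 recovered reads at KO day 2 and 1 in KO mESCs) was 833-fold higher with a 95% counting interval of 149 to 32911. Miat, a long noncoding RNA (585 reads at KO day 2 and 2 in KO mESCs), was 178-fold higher, with an interval of 49.0 to 1470.3. Zfp608 (7.02 ± 0.44) and Slc35d3 (6.83 ± 0.57) rose too, as did Fgf5, Pou3f1 and Dcn, given under their lists.

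The largest falls, by the same rule, began with Jam2, given among the naive genes. Pramel7, a naive-state gene of the PRAME family, had 0 and 0.748 normalised read counts at KO day 2, against 343 and 491 in KO mESCs. That was 1 read against 670, or 1103-fold lower, with a counting interval of 197 to 43638. Its relative Pramel6 was at 0 in both KO day 2 libraries, at least 60.0-fold lower, and members of this family are similar enough for reads to be shared. Hal, a histidine ammonia-lyase, had 2.22 and 11.2 at KO day 2, against 1546 and 1562 in KO mESCs (-7.95 ± 0.46). Spic, an ETS factor, was at 0 in both KO day 2 libraries, against 195 and 217 in KO mESCs, at least 92.4-fold lower.

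Khdc3, a maternal-effect gene, had 7.39 and 4.49 normalised read counts at KO day 2, against 1101 and 1053 in KO mESCs (-7.31 ± 0.33). Ubd, a ubiquitin-like modifier, had 20.7 and 29.9 at KO day 2, against 3809 and 5107 in KO mESCs (-7.41 ± 0.28), and Calcoco2, an autophagy receptor, had 73.1 and 58.4 at KO day 2, against 8721 and 9642 in KO mESCs (-7.11 ± 0.24). Aox3 (-7.67 ± 0.73) fell too, and the channel gene Trpm1 was 469-fold lower with a counting interval of 129 to 3884. Prdm14 and Cdx1 complete the set.

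Of 23 genes of junctions and the cadherin switch, which mix epithelial and mesenchymal genes, 15 rose and 4 fell (median 1.37). Cdh1, which encodes E-cadherin, had 21283 and 21143 normalised read counts at KO day 2, against 11029 and 9274 in KO mESCs (1.07 ± 0.19), and Cdh2, which encodes N-cadherin, had 352 and 355 at KO day 2, against 149 and 124 in KO mESCs (1.37 ± 0.21). Cldn7, a tight junction claudin, rose to 2563 and 2673 at KO day 2, against 361 and 457 in KO mESCs (2.68 ± 0.16), and Esrp1, an epithelial splicing factor, rose by 2.08 ± 0.14. The 4 that fell were Vim (-1.59 ± 0.16) and Fn1 (-2.21 ± 0.18), which encode vimentin and fibronectin, the repressor gene Zeb1 (-0.91) and the claudin gene Cldn4 (-0.78 ± 0.11).

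Genes of cells that a culture might also hold were checked as lists. Of 12 fibroblast and smooth muscle markers, 8 were tested, 5 rose and none fell. The summed level of all 12 was 5147 to 5650 normalised read counts at KO day 2 and 1971 to 2362 in KO mESCs. It was 5646 to 6109 at KO+Rescue day 2 and 1441 to 1669 in KO+Rescue mESCs. In WT it was 2553 to 3172 at day 2 and 896 to 929 in mESCs. Dcn, which encodes decorin, rose to 377 and 384 at KO day 2, against 0 and 4.05 in KO mESCs (207-fold, counting interval 70.7 to 1006, since the mESC value rests on 3 reads). Tagln, a smooth muscle actin-binding protein that stem cells also make, gave most of the summed reads (3744 and 3315 at KO day 2, against 1513 and 1911 in KO mESCs). Col3a1, Lum, Postn and S100a4 did not reach the minimum of 10. The part of other cells in these values was not tested.

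Of 13 tested primitive endoderm genes, 7 rose and 2 fell (median 1.61). Those that rose include the basement membrane gene Col4a1 (1657 and 1651 at KO day 2 and 252 and 252 in KO mESCs, 2.71 ± 0.26) and Lamb1 (2.04 ± 0.19). Gata4, a defining factor, was low, with 76.1 and 59.1 at KO day 2 and 16.8 and 18.9 in KO mESCs (1.85 ± 0.40), and Gata6 and Sox17 did not reach the minimum. Those that fell were Lamc1, a laminin gene (-1.32), and Sparc, a matrix glycoprotein gene (5980.4 and 5741 at KO day 2 and 17287 and 17251 in KO mESCs, -1.56 ± 0.12). The summed level of the list was lower at day 2, 15209 to 15402 normalised read counts at KO day 2 and 26943 to 27675 in KO mESCs, although its median change was above 0. Of 12 tested trophoblast genes, 5 rose and 6 fell (median -0.95, and 5 and 5 with equal library totals), with the keratin genes Krt8 (1.5 ± 0.15) and Krt18 (2.28 ± 0.14) up and the factor genes Tfap2c (-4.74 ± 0.20) and Tead4 (-2.94 ± 0.31) down. Genes of the 2-cell-like state were rare in KO mESCs and rarer at day 2: of 6 tested none rose and 5 fell, and Zscan4c had 4.43 and 11.2 at KO day 2 and 47.1 and 48.6 in KO mESCs, though copies of this cluster can share reads.

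**Figure D3:**
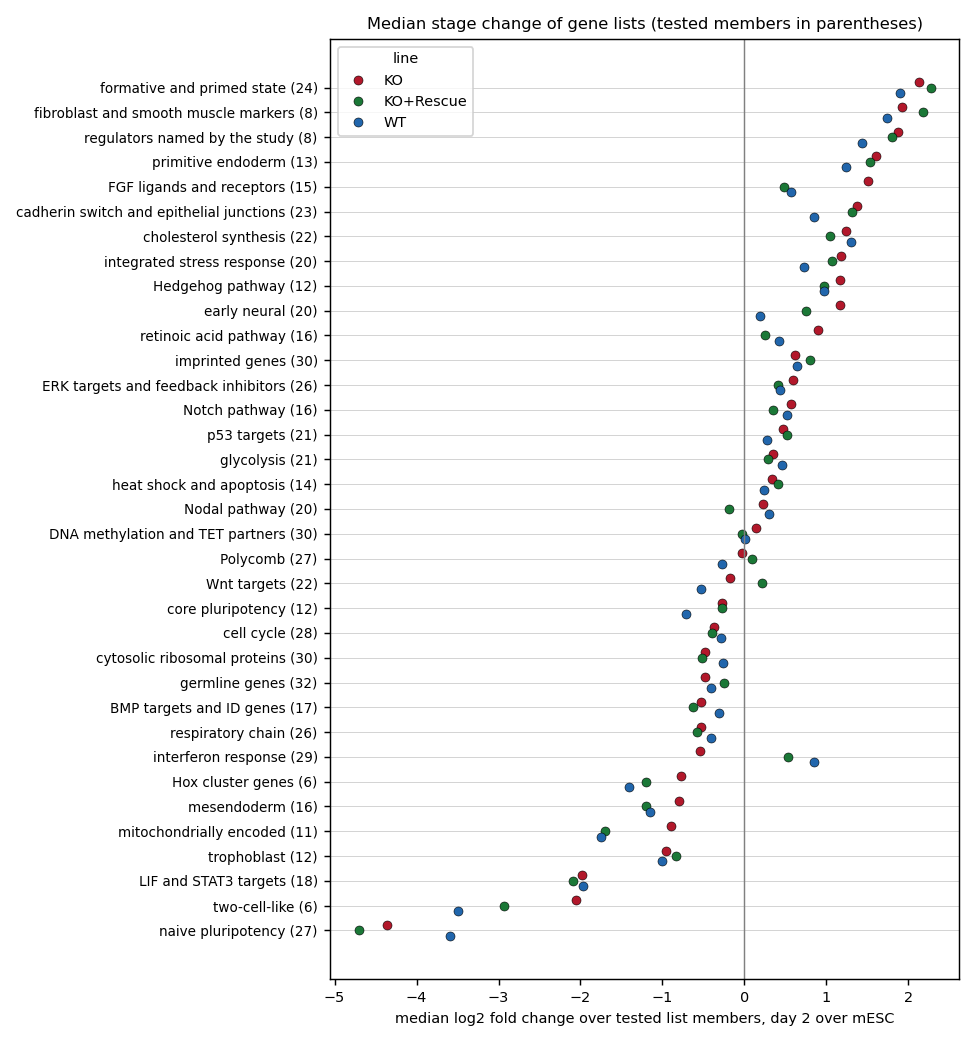
Median log2 fold change, day 2 over mESC, over the tested members of each gene list (number in parentheses), for KO, KO+Rescue and WT. Lists run by their KO median, with the naive list at the bottom (-4.36 in KO) and the formative list at the top (2.13 in KO). The interferon list has a KO median below 0 (-0.54) and medians above 0 in KO+Rescue (0.54) and WT (0.85), but the median of the gene-by-gene difference between KO and KO+Rescue is 0.02.

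The exit in KO was set against that in WT, which used 4 separate libraries. In WT, 7967 genes (51.9%) were called, 4079 (26.6%) higher and 3888 (25.3%) lower at day 2. In KO+Rescue, 8935 of the 15341 genes were called, 4472 higher and 4463 lower. The changes in KO+Rescue correlated with those in KO with r = 0.936 (Spearman 0.919). Of the genes higher in KO, 3531 were also higher in WT (73.3% of the KO genes and 86.6% of the WT genes) and 4 were lower in WT. Of those lower in KO, 3235 were lower in WT (73.5% and 83.2%) and 25 were higher. Over all 15341 genes the changes in KO and WT correlated with r = 0.915 (Spearman 0.895), a description across genes, which are not independent replicates.

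To compare the size of the exit on genes that neither line had chosen, the 2868 genes that rose and the 2192 that fell at least 2-fold in KO+Rescue were used. KO+Rescue derives from the KO clone, so genes chosen in it may sit closer to KO than to WT. The median rise was 2.08 in KO and 1.79 in WT, and 69.2% of these genes rose further in KO. The median fall was -1.70 in KO and -1.45 in WT, and 69.1% fell further in KO. With equal library totals the medians were 1.92 in KO and 1.62 in WT for rises, and -1.87 in KO and -1.67 in WT for falls. No test was made of this difference, since genes are not replicates.

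**Figure D4:**
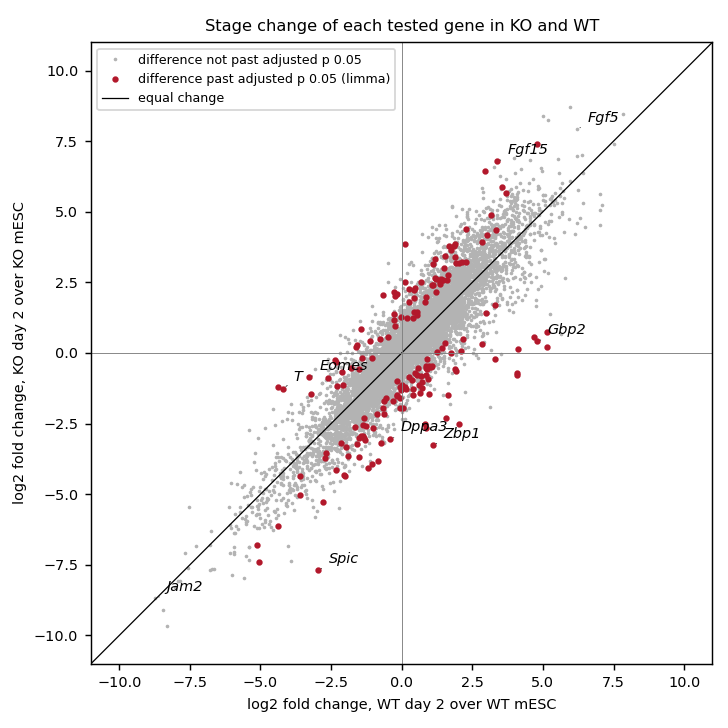
Log2 fold change of day 2 over mESC for each of the 15341 tested genes, in KO (vertical axis) and WT (horizontal axis). Grey points did not pass the test of the difference, the 173 red points passed it, and the line marks equal change. Most points lie along the line, with T and Eomes above it and Gbp2, Zbp1, Spic and Dppa3 below it.

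The difference between the 2 exits, tested as an interaction, was called for 173 genes (1.13%), 77 with a more positive change in KO (0.502%) and 96 with a more negative one (0.626%). This count was unsteady: it ranged between 48 (without KO mESC replicate B) and 347 (without WT mESC replicate B) when each of the 8 libraries was left out. The values below are the change in KO minus the change in WT on the log2 scale, with the limma adjusted p of that difference.

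Of 16 mesendoderm genes 2 had a called difference from WT, T and Eomes, against 0.502% of all genes with a more positive change. Both fell less in KO. T had 90.1 and 73.3 normalised read counts at KO day 2 and 225 and 171 in KO mESCs, and 30.3 and 34.8 at WT day 2 and 569 and 665 in WT mESCs (difference 2.94 ± 0.37, adjusted p = 0.00186). Eomes had 310.2 and 312 at KO day 2 and 571 and 556 in KO mESCs, and 117 and 65.2 at WT day 2 and 927 and 813 in WT mESCs (difference 2.44 ± 0.35, adjusted p = 0.00466). For both genes KO mESCs were lower than WT mESCs and KO day 2 was higher than WT day 2. Ccnd2, which encodes cyclin D2, had 374 and 496 at KO day 2 and 109 and 97.1 in KO mESCs, and 493 and 367 at WT day 2 and 746 and 597 in WT mESCs (difference 2.71 ± 0.30). It differed most among mESCs, where KO held far less.

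Fgf15 (3.41 ± 0.45) and Kif1a (2.61 ± 0.38) rose further in KO than in WT, both starting lower in KO mESCs. Fgf15 had 234 and 182 normalised read counts at WT day 2 and 15.4 and 23.4 in WT mESCs. These 5 genes kept the call in every alternative run. Antxr2 (3.49 ± 0.74), Napsa (3.17 ± 0.69), Nags (2.42 ± 0.50) and Pax6 (2.26 ± 0.45) also passed. With 1 library left out, the adjusted p of Antxr2 was 0.0513 to 0.225 and that of Nags 0.0608 to 0.215, and neither was called with any 1 of the 8 left out. That of Napsa was 0.016 to 0.225, called only when WT day 2 replicate B was left out, and that of Pax6 was 0.0336 to 0.188, called only without WT mESC replicate A or WT day 2 replicate A.

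Some interferon genes that rose in WT did not rise in KO. In the interferon list, 9 of 29 rose and 14 fell in KO (median -0.54, and 10 and 11 with equal library totals), whereas 17 rose and 8 fell in WT (median 0.85), and 6 members had a called difference, all more negative in KO, against 0.626% of all genes, while 23 had none. Against KO+Rescue, where 12 rose and 14 fell, none of the 29 had a called difference and the median difference was 0.02. Gbp2, a guanylate-binding GTPase, had 76.1 and 49.4 normalised read counts at KO day 2 and 45.9 and 45.9 in KO mESCs, and 1610.2 and 1994 at WT day 2 and 55.7 and 73.3 in WT mESCs (difference -4.38 ± 0.68, adjusted p = 0.00697; 0.0532 without KO day 2 replicate B, which ended the call). Gbp2b, a close relative with which reads may be shared, had 40.6 and 50.1 at KO day 2 and 23.5 and 37.8 in KO mESCs, and 1128 and 1226 at WT day 2 and 33.2 and 59.0 in WT mESCs (difference -4.12 ± 0.56). Zbp1, a sensor of Z-form nucleic acid, had 2.95 and 5.24 at KO day 2 and 47.1 and 45.9 in KO mESCs, and 130.1 and 146 at WT day 2 and 65.2 and 62.1 in WT mESCs (difference -4.36 ± 0.54, adjusted p = 0.00186). The high values were those of WT day 2, and KO+Rescue day 2 held 68.1 and 49.8 for Gbp2 and 4.69 and 2.82 for Zbp1, close to the KO values.

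Gbp3 (-4.77 ± 0.83) and Cd274, which encodes PD-L1 (-4.40 ± 0.85), were also highest at WT day 2. With 1 library left out, Gbp3 (adjusted p 0.024 to 0.097) lost the call without WT day 2 replicate B, either KO mESC replicate or KO day 2 replicate A. Cd274 (0.0162 to 0.114) kept it only without WT mESC replicate B or KO mESC replicate A. For other members the difference was not called. H2-K1, a class I MHC gene, rose in KO to 1904 and 1656, against 217 and 194 in KO mESCs (3.10 ± 0.13), and the difference from WT was 0.60 ± 0.19 (adjusted p = 0.174). Oas1a, an oligoadenylate synthetase, fell in KO to 74.6 and 58.4, against 1435 and 1538 in KO mESCs, with a difference from WT of -0.29 ± 0.36 (adjusted p = 0.776).

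Of 27 naive genes 5 fell further in KO than in WT, against 0.626% of all genes with a more negative change, and none fell less by this test. The summed level of the list started higher in KO, with 468574 to 520880 normalised read counts in KO mESCs and 343293 to 418493 in WT mESCs. At day 2 the sums overlapped, with 50413 to 50941 in KO and 50218.5 to 69827 in WT. The list median was -4.36 in KO, -3.59 in WT and -4.70 in KO+Rescue. Against KO+Rescue none of the 27 had a called difference more negative in KO and 1 had a more positive one. The median difference from KO+Rescue was 0.10. Dppa3, which encodes the maternal factor STELLA, had 262 and 326 normalised read counts at KO day 2 and 2239.8 and 2578 in KO mESCs, and 1122 and 1509 at WT day 2 and 1406 and 2129 in WT mESCs (difference -2.62 ± 0.30, adjusted p = 0.0018). In WT its change of -0.41 ± 0.21 was not called, and KO+Rescue had 349.6 and 314 at day 2 and 1245 and 1624 as mESCs. Nr5a2 (-1.66 ± 0.31), Fbxo15, an F-box gene (-1.42 ± 0.27), and Pecam1, an adhesion molecule (-1.17 ± 0.21), also passed, and Tdh was the fifth. With 1 library left out, Nr5a2 (adjusted p 0.014 to 0.108) lost the call without either KO mESC replicate or KO day 2 replicate A. Fbxo15 (0.00168 to 0.147) lost it without WT mESC replicate A or any KO library, and Pecam1 (0.0082 to 0.0996) without WT day 2 replicate B, KO mESC replicate A or either KO day 2 replicate. Spic, outside that list, had 0 and 0 normalised read counts at KO day 2 and 27.8 and 11.6 at WT day 2 (difference -4.72 ± 0.90), and it too lost the call without WT mESC replicate A or any KO library (adjusted p 0.0162 to 0.108). Esrrb and Nanog showed differences of -1.27 ± 0.30 (adjusted p = 0.0637) and 0.90 ± 0.27 (adjusted p = 0.152) and were not called.

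Of the remaining genes named by size, Asb9 had 5.17 and 15.7 normalised read counts at KO day 2 and 16.8 and 16.2 in KO mESCs, and 238 and 355 at WT day 2 and 21.3 and 12.2 in WT mESCs (difference -4.87 ± 0.73, adjusted p = 0.00545). Cdh18, a cadherin gene, had 6.65 and 5.99 at KO day 2 and 6.72 and 4.05 in KO mESCs, and 64.8 and 40.6 at WT day 2 and 1.19 and 0 in WT mESCs (difference -4.92 ± 1.01, adjusted p 0.0467 to 0.154 with 1 library left out, called only without WT mESC replicate A). Both were high at WT day 2 alone among these 4 groups.

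Several list members outside the naming rule for differences between lines, picked after their values were seen, also differed from WT in every alternative run. Slc16a3, the lactate exporter MCT4, had 13706 and 12098 normalised read counts at KO day 2 and 310.4 and 206 in KO mESCs, and 12107 and 13482 at WT day 2 and 1005 and 946 in WT mESCs (difference 1.95 ± 0.24). Il17rd, an inhibitor of FGF signalling, had 1328 and 1651 at KO day 2 and 590.5 and 553 in KO mESCs, and 604 and 563 at WT day 2 and 793 and 616 in WT mESCs (difference 1.63 ± 0.22). Grb10, an imprinted adaptor of growth factor receptors, had 3167 and 3515 at KO day 2 and 615 and 544 in KO mESCs, and 6002 and 4629.9 at WT day 2 and 3792 and 2858 in WT mESCs (difference 1.85 ± 0.23). For Slc16a3 and Grb10 both KO mESC libraries lay more than 2-fold below both WT mESC libraries, and for Il17rd both KO day 2 libraries lay more than 2-fold above both WT day 2 libraries.

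Chac1, a glutathione-degrading target of the stress factor ATF4, differed by 1.91 ± 0.24, Thy1, a surface glycoprotein, by 2.04 ± 0.28, and Cldn4 by -1.62 ± 0.16. Cldn4 fell in KO (2937 and 2673 normalised read counts at day 2 and 4687 and 4915 in mESCs) and rose in WT (4305 and 4789 at day 2 and 2597 and 2460.4 in mESCs).

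**Figure D5:**
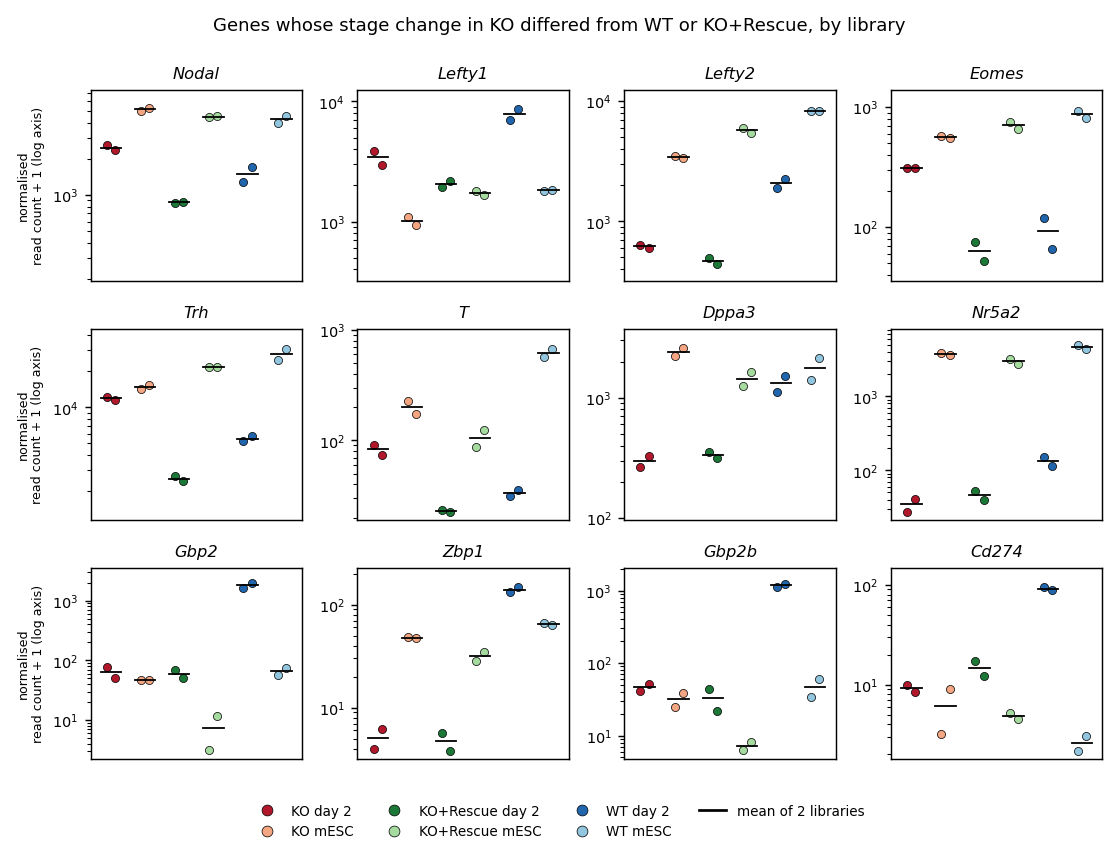
Normalised read count plus 1, on log axes, of 12 genes whose change between stages differed between KO and WT or between KO and KO+Rescue. Points are libraries and lines the means of 2. In KO, Eomes (310 and 312), Trh (12233 and 11450) and Nodal (2583 and 2355) stay higher at day 2 than in KO+Rescue or WT, whereas Gbp2, Zbp1, Gbp2b and Cd274 are highest at WT day 2.

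The KO+Rescue line is the KO clone with PROSER1 put back, and the comparison asks where the exits of the 2 lines differed. The difference between the exits of KO and KO+Rescue was called for 13 genes (0.0847%), 8 more positive in KO (0.0521%) and 5 more negative (0.0326%). This comparison uses the same 4 KO libraries as the one with WT, so the 2 are not independent. With any 1 of its 8 libraries left out, 1 or 2 genes were called, and of the genes named below only Trh was called each time.

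Trh, which encodes thyrotropin-releasing hormone, had 12233 and 11450.4 normalised read counts at KO day 2 and 14167 and 15201 in KO mESCs, and 2685 and 2413 at KO+Rescue day 2 and 21568 and 21595 in KO+Rescue mESCs. The difference was 2.77 ± 0.19 (limma adjusted p = 3.06e-05). WT had 5199.8 and 5718 at day 2 and 24519 and 30549.9 as mESCs, a difference from KO of 2.02 ± 0.19 (adjusted p = 0.000943). In the KO line its change of -0.31 ± 0.13 was not called, while the libraries of the other lines lay far apart between stages.

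Of 20 Nodal pathway genes 3 had a called difference, Nodal, Lefty1 and Lefty2, against 0.0847% of all genes, but none of the 3 kept it with any library left out. Nodal had 2583 and 2355 normalised read counts at KO day 2 and 5009 and 5263 in KO mESCs, and 855 and 871 at KO+Rescue day 2 and 4432 and 4509 in KO+Rescue mESCs (difference 1.31 ± 0.20, adjusted p = 0.036, 0.0762 to 0.244 with 1 library left out). Lefty1 differed by 1.51 ± 0.22 (adjusted p = 0.0277, 0.069 to 0.195 with 1 left out) and Lefty2 by 1.14 ± 0.18 (adjusted p = 0.036, 0.089 to 0.296). Eomes had 73.9 and 51.7 at KO+Rescue day 2 and 756 and 657 in KO+Rescue mESCs (difference 2.64 ± 0.35, adjusted p = 0.0158, 0.06 to 0.131). For Nodal the difference from WT was 0.47 ± 0.20 (adjusted p = 0.351) and was not called. Lefty1 rose in WT, with 6976 and 8595 at day 2 and 1808 and 1829.5 as mESCs, about as steeply as in KO (difference -0.33 ± 0.22), whereas KO+Rescue had 1918 and 2165 at day 2 and 1786 and 1646 as mESCs.

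Foxn4, a forkhead factor (1.98 ± 0.32), and Pid1 (1.02 ± 0.17) also had a more positive change in KO than in KO+Rescue. Those with a more negative one were Sema6a, a semaphorin (-2.33 ± 0.30), Peg10, an imprinted retrotransposon-derived gene (-1.66 ± 0.24), Ube2l6, an ISG15-conjugating enzyme (-1.59 ± 0.25), Dmrt1, a DM-domain factor (-1.41 ± 0.18), and Trap1a, an X-linked tumour antigen (-1.37 ± 0.22). None of them was called with any of the 8 libraries left out, with adjusted p between 0.0673 (Sema6a and Dmrt1) and 0.301 (Pid1).

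For Dmrt1, KO libraries held 1662 and 1699 normalised read counts at day 2 and 2787 and 2972 as mESCs. KO+Rescue libraries held 3631 and 3539 at day 2 and 2372 and 2237 as mESCs, and WT libraries 4892 and 5863 at day 2 and 3328 and 3971 as mESCs. It fell in KO, while in the other 2 lines the day 2 libraries lay above the mESC libraries. Peg10 had the same arrangement, with 1138 and 1439 at day 2 and 2848 and 2835 as mESCs in KO, 2398 and 2665 at day 2 and 1789 and 1763 as mESCs in KO+Rescue, and 3858 and 3171 at day 2 and 2735 and 1897 as mESCs in WT. Against WT, the change in KO differed by -1.33 ± 0.18 for Dmrt1, -1.77 ± 0.24 for Peg10, -1.80 ± 0.22 for Trap1a, -2.28 ± 0.25 for Ube2l6 and 1.49 ± 0.32 for Foxn4, each called. Foxn4 kept its call against WT only without WT mESC replicate B (adjusted p 0.0247 to 0.216 with 1 library left out).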

How the data were processed

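Total RNA was sequenced in 12 libraries with a directional paired-end kit. Per the labels and the study's methods, the authors trimmed reads with Trimmomatic, aligned them with STAR to mm10, counted read pairs per RefSeq gene with featureCounts, removed reads on the Y chromosome and normalised with DESeq2; versions are not given in the sources used here. The deposited values are a signal, read counts divided by a size factor per library. Whole reads were recovered for 100% of values (tolerance 0.001 of a read), and on these edgeR called 9257 genes for KO day 2 against KO mESCs and DESeq2 9425. The table names libraries by line code, stage and the letter A or B. Code 39 was taken as KO and 39R as KO+Rescue, an inference from the codes, and letters are used as replicate names.

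Genes with a mean of at least 10 were fitted with limma 3.58.1 (R 4.3.3) on log2(value + 1), with 6 group means over 12 libraries (6 residual degrees of freedom), empirical Bayes moderation and Benjamini-Hochberg adjustment at 0.05. The fold scale understates changes of low genes. Differences between lines are interaction contrasts. Alternatives used other pseudocounts, filters and scalings, edgeR 4.0.16 and DESeq2 1.42.0 on the recovered reads, the replicate letter as a block, and each library left out. Floors are 3 reads per library, and exact (Clopper-Pearson) 95% intervals cover counting error only.

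The comparison, gene lists and tests were chosen with earlier results of these data known. Genes were named by rule: Proser1, the 12 largest rises and falls of called genes with a group mean of at least 100, up to 6 members per list by adjusted p, all regulators the study named, and the 8 largest differences each way per interaction with a mean of at least 50. List members named beyond the rule were chosen after their values were seen, among them Dppa4, Nlrp14, Fgf4, Zfp42, Sall4, Sox1, Dcx, Tubb3, Tet1, Lifr, Stat3 and the promoter genes. Some genes are not reported here and stay out of the figures of single genes, though counts, medians and tests over lists or over all genes include them. Sequences are from RefSeq (GRCm38.p6), and the guide was placed on GRCm39.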

Additional observations from a re-analysis of the deposited data

Results flagged for a closer look

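The genes below had a change between stages that differed between KO and another line, by the interaction test. Values are the log2 change in KO minus that in the other line, and what lies behind them was not tested.

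Against WT, the change was more positive in KO for Antxr2 (3.49), Fgf15 (3.41), Napsa (3.17), T (2.94), Ccnd2 (2.71), Kif1a (2.61), Eomes (2.44), Nags (2.42), Pax6 (2.26), Thy1 (2.04), Trh (2.02), Slc16a3 (1.95), Chac1 (1.91), Grb10 (1.85), Il17rd (1.63) and Foxn4 (1.49). It was more negative for Cdh18 (-4.92), Asb9 (-4.87), Gbp3 (-4.77), Spic (-4.72), Cd274 (-4.40), Gbp2 (-4.38), Zbp1 (-4.36), Gbp2b (-4.12), Dppa3 (-2.62), Ube2l6 (-2.28), Trap1a (-1.80), Peg10 (-1.77), Nr5a2 (-1.66), Cldn4 (-1.62), Fbxo15 (-1.42), Dmrt1 (-1.33) and Pecam1 (-1.17).

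Against KO+Rescue, the change was more positive in KO for Trh (2.77), Eomes (2.64), Foxn4 (1.98), Lefty1 (1.51), Nodal (1.31), Lefty2 (1.14) and Pid1 (1.02). It was more negative for Sema6a (-2.33), Peg10 (-1.66), Ube2l6 (-1.59), Dmrt1 (-1.41) and Trap1a (-1.37).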

How the results depend on the processing

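Of 202 called genes examined singly for the KO exit, 199 kept direction and call in every alternative run that tested them. The exceptions were Dppa4, Pou5f1 and Eomes. With the filter at a mean of 50, 188 of the 202 were tested. Tet1, not called, turned sign with equal library totals (0.25) and without KO day 2 replicate A (-0.37 to 0.20 with a library left out). The count of 9219 KO genes stayed within 1.5 times under every alternative (7027 to 7794 with a library left out), as did 7967 in WT (6347 to 7871). With 1 library left out, the lone library is assumed to vary like the other groups.

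The count of 173 genes that differed from WT became 105 with no filter, 99 with equal library totals, 490 with DESeq2, 68 with only the libraries of the contrast and 48 to 347 with a library left out. Of 33 such genes named, 20 kept the call in every run that tested them. With the filter at a mean of 50, 27 of the 33 were tested. The count of 13 against KO+Rescue became 4, 7, 90 and 61 under the same settings and 1 to 2 with a library left out. Which setting is nearer the truth was not tested.

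The study's methods say that 2 biological replicates of each line were differentiated, with RNA taken at plating and at day 2. The letters A and B recur at both stages, so the libraries may be paired within each line. The sources do not state that a letter marks the same culture, and the libraries were left unpaired. The A minus B deviations correlated at 0.05 between KO day 2 and KO mESC and at 0.41 between WT day 2 and WT mESC. Over the 15 pairs of groups they correlated at -0.05 to 0.41. This range does not settle the choice for WT. An alternative used the letter as a block, which fits the same shift in all groups and is not a pairing within each line. With it the counts were 500 against WT and 65 against KO+Rescue, and the block ended no call of a named gene for the KO exit. Pairing within each line was not tested.

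The median size of the exit became 1.92 and -1.87 in KO and 1.62 and -1.67 in WT with equal library totals (chosen after seeing the data), 2.99 and -2.85 in KO and 2.58 and -2.38 in WT for genes changed at least 4-fold, and 2.03 to 2.14 and -1.84 to -1.52 in KO and 1.69 to 1.88 and -1.63 to -1.31 in WT with a library left out.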

Other observations

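Several gene groups that the comparison did not centre on also moved in KO cells. Of 12 tested Hedgehog pathway genes, 10 rose and 1 fell (median 1.17). Smo, the transducer of the pathway, had 3179 and 2999 normalised read counts at KO day 2, against 310.4 and 274 in KO mESCs (3.40 ± 0.12, SE, log2, limma adjusted p = 4.12e-10), and the transcription factor gene Gli3 had 514 and 682 at KO day 2, against 115 and 127 in KO mESCs (2.28 ± 0.29). Of 16 Notch genes, 8 rose and 3 fell (median 0.57), with the ligand genes Dll1 (449 and 404 at KO day 2 and 22.4 and 27 in KO mESCs, 4.06 ± 0.40) and Jag2 (2.69 ± 0.24) higher and Rbpj, the DNA-binding partner of the Notch intracellular domain, lower (-1.36 ± 0.13). Of 16 retinoic acid genes, 8 rose and 2 fell (median 0.89), led by Crabp2, a carrier of retinoic acid to the nucleus (3477 and 2869 at KO day 2 and 290.2 and 344 in KO mESCs, 3.32 ± 0.17).

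Metabolic and stress genes moved as well. Of 22 cholesterol synthesis genes, 20 rose and 1 fell (median 1.24). Fdps, which makes farnesyl pyrophosphate, had 26766 and 23036 normalised read counts at KO day 2, against 5330.1 and 5177 in KO mESCs (2.24 ± 0.15), whereas Ebp, a sterol isomerase, was the one that fell (849 and 819 at KO day 2 and 5077 and 5485 in KO mESCs, -2.66 ± 0.14). None of 26 respiratory chain genes rose and 17 fell (median -0.53). With equal library totals 1 rose and 10 fell, and Cox5a had 6229 and 6516 at KO day 2 and 14154 and 16222 in KO mESCs (-1.25 ± 0.12). Of 20 genes of the integrated stress response, 14 rose and 1 fell (median 1.18, and 18 and 0 with equal library totals), including Ddit3, which encodes CHOP (1624 and 1308 at KO day 2 and 185 and 189 in KO mESCs, 2.96 ± 0.15), and Atf3 (4.21 ± 0.32). Of 21 p53 targets, 11 rose and 4 fell (median 0.47, and 14 and 2 with equal library totals), with Pmaip1, which encodes the BH3-only protein NOXA, at 12899.7 and 14882 at KO day 2 and 1476 and 1478 in KO mESCs (3.23 ± 0.12).

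Germline and imprinted genes, many of which are under the control of DNA methylation, moved in both directions. Of 32 tested germline genes 11 rose and 11 fell (median -0.48, and 11 and 8 with equal library totals). These counts lie near the shares over all genes (31.4% higher and 28.7% lower). Tdrd1, a piRNA pathway gene, had 289 and 358 normalised read counts at KO day 2, against 20.2 and 27 in KO mESCs (3.73 ± 0.26), whereas Dazl, a germ cell RNA-binding protein, had 291 and 296 at KO day 2, against 1075 and 893 in KO mESCs (-1.74 ± 0.17), and Stra8, a meiosis gene, fell (-2.25 ± 0.23). Of 30 imprinted genes 14 rose and 6 fell (median 0.62). Cdkn1c, a cyclin-dependent kinase inhibitor, had 1567 and 1398 at KO day 2, against 338 and 308 in KO mESCs (2.19 ± 0.15), and Plagl1, a zinc-finger factor, had 34.0 and 46.4 at KO day 2, against 654 and 638 in KO mESCs (-3.99 ± 0.26).

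Of 28 cell cycle genes 7 rose and 14 fell (median -0.38), but with equal library totals 9 rose and 5 fell (median -0.04), and the D cyclins went apart. Ccnd2 rose in KO, while Ccnd3 had 1985 and 1797 normalised read counts at KO day 2, against 7669 and 6832 in KO mESCs (-1.94 ± 0.16). Of 21 glycolysis genes 10 rose and 2 fell (median 0.35), and with equal library totals 17 rose and 2 fell (median 0.69), with the glucose transporter gene Slc2a1 at 24181 and 22747 at KO day 2 and 4539 and 4122 in KO mESCs (2.44 ± 0.14), and the phosphofructokinase genes Pfkl (2.08 ± 0.15) higher and Pfkp (-2.09 ± 0.15) lower.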
